A study of Homo sapiens with 8 samples.

Results

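The genes described here are 34 human genes of homologous recombination and of the Fanconi anaemia pathway. They were taken by symbol from a deposited table of 25593 gene rows. All 34 symbols had a row, and all 34 passed the filter on low values. Gene expression had been measured by RNA sequencing in the acute myeloid leukaemia lines HL60 (promyelocytic, with amplified MYC) and Kasumi-1 (myeloblastic, with the RUNX1-RUNX1T1 fusion). The 4 groups were untreated cells of each line and cells of each line given cinobufagin at 100 nM for 24 h, with 2 libraries per group. Cinobufagin is a toad venom steroid that binds the Na+/K+-ATPase. HL60 was cultured with 10% fetal bovine serum and Kasumi-1 with 20%, so line and serum cannot be told apart. Whether replicate libraries stem from separate cultures is not in the labels, so the p-values below rest on a spread between libraries that may be technical only. The question put to these genes was how their RNA levels differed between treated and untreated cells of each line, and between the lines.

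Homologous recombination repairs a DNA double-strand break by copying from an intact sister chromatid: nucleases trim the broken ends, and BRCA2 with its partners prepares the exposed strand to invade the sister. The Fanconi anaemia proteins act on crosslinks between the strands, where a core ubiquitin ligase modifies FANCD2 and FANCI and so calls in nucleases. Both pathways work mainly in S and G2 phase and are signalled by the ATM and ATR kinases. Inherited loss of several of these genes leads to bone marrow failure and a high risk of acute myeloid leukaemia.

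To show the DNA in front of the genes that moved farthest in HL60, the 250 bases before the start were read from RefSeq (GRCh38.p14) for the 3 genes with the largest fall and the 3 with the largest rise. Capitals mark matches to the motifs searched.
RAD51D promoter: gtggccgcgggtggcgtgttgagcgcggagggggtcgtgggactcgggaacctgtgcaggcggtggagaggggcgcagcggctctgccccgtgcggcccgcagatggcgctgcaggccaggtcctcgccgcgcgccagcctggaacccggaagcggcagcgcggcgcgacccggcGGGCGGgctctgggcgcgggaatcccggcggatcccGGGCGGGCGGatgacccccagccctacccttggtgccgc
FANCF promoter: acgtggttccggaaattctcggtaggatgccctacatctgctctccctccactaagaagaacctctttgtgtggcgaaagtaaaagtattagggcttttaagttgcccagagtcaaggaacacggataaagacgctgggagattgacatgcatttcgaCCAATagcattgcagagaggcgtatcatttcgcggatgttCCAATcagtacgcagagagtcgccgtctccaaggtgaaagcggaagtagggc
PALB2 promoter: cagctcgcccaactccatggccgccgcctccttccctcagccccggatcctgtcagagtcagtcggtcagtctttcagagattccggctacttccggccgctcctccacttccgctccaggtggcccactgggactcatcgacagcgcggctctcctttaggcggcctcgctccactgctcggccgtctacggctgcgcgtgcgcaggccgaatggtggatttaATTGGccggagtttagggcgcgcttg
RBBP8 promoter: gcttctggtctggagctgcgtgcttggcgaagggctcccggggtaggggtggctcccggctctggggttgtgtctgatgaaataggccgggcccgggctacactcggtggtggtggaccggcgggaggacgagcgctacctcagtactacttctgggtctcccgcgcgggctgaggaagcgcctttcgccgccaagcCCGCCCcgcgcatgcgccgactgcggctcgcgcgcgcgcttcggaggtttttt
FANCE promoter: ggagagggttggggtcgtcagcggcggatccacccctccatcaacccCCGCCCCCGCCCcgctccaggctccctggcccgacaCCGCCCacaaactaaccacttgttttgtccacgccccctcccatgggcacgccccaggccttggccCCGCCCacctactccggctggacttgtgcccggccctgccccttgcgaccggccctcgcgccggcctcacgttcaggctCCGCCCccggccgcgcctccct
FANCM promoter: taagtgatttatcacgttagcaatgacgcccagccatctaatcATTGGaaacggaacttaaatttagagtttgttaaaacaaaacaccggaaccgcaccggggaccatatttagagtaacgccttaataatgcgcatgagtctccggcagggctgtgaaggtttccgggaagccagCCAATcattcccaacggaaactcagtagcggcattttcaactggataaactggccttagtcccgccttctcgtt
The windows lie at chr17:35119759-35120008 on the minus strand (RAD51D), chr11:22625824-22626073 minus (FANCF) and chr16:23641311-23641560 minus (PALB2). Those of the genes that rose lie at chr18:22933617-22933866 plus (RBBP8), chr6:35452088-35452337 plus (FANCE) and chr14:45135680-45135929 plus (FANCM).

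The motifs searched on both strands were E2F (written as TTTCCCGC, TTTCGCGC, TTTGCCGC or TTTGGCGC), the E-box (CACGTG), the CCAAT box (those letters), SP1 (GGGCGG), CHR (TTTGAA) and the TATA box (TATAAA). RAD51D, which fell most on the log2(FPKM + 1) scale, had 3 SP1 matches, of which those at 39 and 35 bases before the start overlap, and FANCE, which rose, had 5. A pair of CCAAT matches stood before FANCF, which fell, and before FANCM, which rose. PALB2 had 1 CCAAT match, read as ATTGG on the printed strand 26 bases before the start. RBBP8 had 1 SP1 match, 53 bases before the start. SP1 letters were in 42.6% of all 35116 windows and in 61.9% of the 42 windows of the members with an entry, and CCAAT in 32.0% and 42.9%. E2F letters were in 2.79% of all windows and, among 31 members with an entry, before FANCA and FANCC. E-box letters were in 6.34% of all windows and 2.38% of the members' windows, those of BRCA2 alone, CHR in 13.3% and 9.52%, and TATA in 10.7% and 2.38%. A match is a description of the letters only. The members' windows were 63.2% G and C in the median, against 58.0% over all windows.

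Values are FPKM, fragment counts corrected for gene length and library size, which can be compared between genes. They give a level relative to the rest of the library, and their totals differed between libraries. A bulk value cannot tell fewer expressing cells from less RNA per cell. Changes were tested on log2(FPKM + 1) with limma and Benjamini-Hochberg adjustment over 12511 genes, with a call at an adjusted p under 0.05. This scale understates the changes of low genes. Relative depth, read from the lowest values, lay between 0.787 and 1.06 of that of untreated HL60 replicate 1. Kasumi-1 markers (RUNX1T1, KIT and CD34) summed to 193 to 238 FPKM in Kasumi-1 and to at most 0.995 in HL60, with RUNX1T1 and CD34 listed at 0 there. The 5 myeloid markers summed to 4467 to 4488 FPKM in untreated and 348 to 391 in treated HL60, and to 10164 to 10427 and 13160 to 13538 in Kasumi-1. MPO made up most of these sums, and CD33 ran against them in Kasumi-1, with 31.8 and 32.0 FPKM untreated against 20.4 and 18.3 treated. T cell, B cell and erythroid markers summed to at most 1.15, 3.47 and 0.158 FPKM, with CD79A at 3.41 and 2.69 in untreated HL60, and EPCAM stood at 72.7 to 78.5 FPKM in Kasumi-1.

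All 34 genes were expressed at 1 FPKM or more in every library, with the lowest value, 1.10, for SLX4 in untreated Kasumi-1 replicate 2. In untreated HL60 the highest was UBE2T at 55.9 ± 1.3 FPKM (SD, n = 2), the E2 enzyme of the Fanconi ligase, followed by FANCI at 45.4 ± 0.24. The order there went on with RBBP8 at 36.9 ± 0.97, CHEK1 at 35.1 ± 0.95 and RAD51C at 34.4 ± 0.52, and CHEK1 and RAD51C did not differ beyond their spread. FANCM at 2.73 ± 0.32 and FANCB at 2.81 ± 0.78 stood last and overlapped. UBE2T was also the highest in untreated Kasumi-1, at 39 ± 5.9, where RAD51C at 35 ± 3.6 overlapped it. Summed over the 34 genes, the level was 534 and 544 FPKM in untreated HL60, 516 and 493 after cinobufagin, 400 and 389 in untreated Kasumi-1 and 357 and 352 after cinobufagin. The treated sums lay below the untreated ones in each line. As a share of the library's FPKM total without short RNAs, the treated HL60 libraries instead stood above, at 0.0965% and 0.0932% against 0.0861% and 0.0923%, and the treated Kasumi-1 ones below, at 0.0564% and 0.0598% against 0.0647% and 0.0673%.

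**Figure D1:**
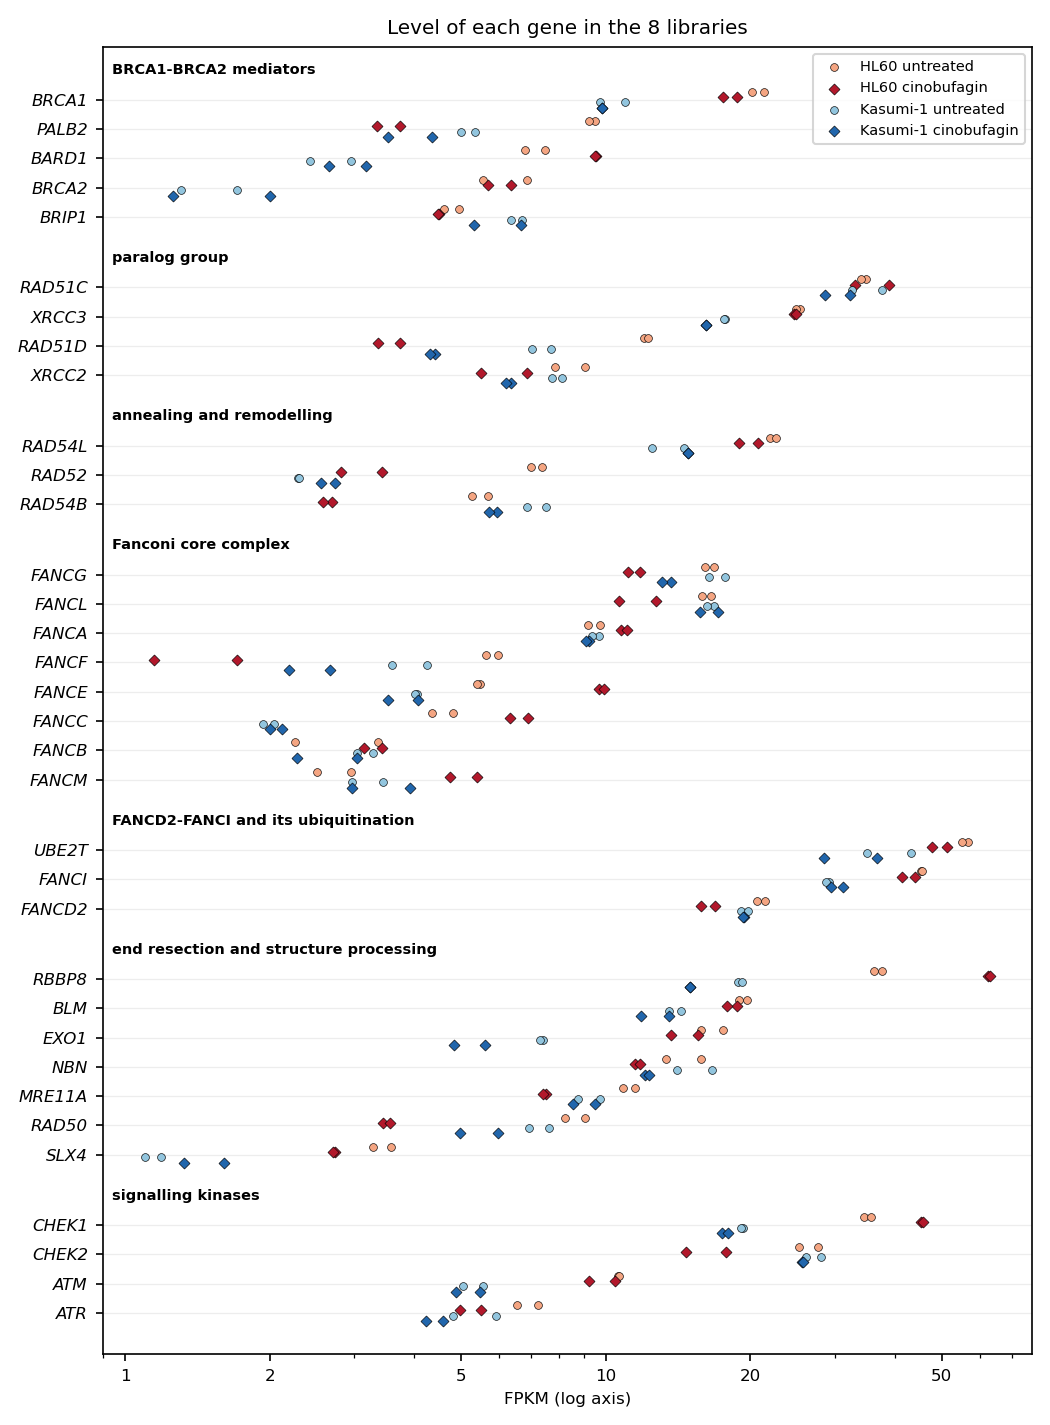
FPKM (log axis) of the 34 genes, grouped by role, in each of the 8 libraries, with 1 point per library. UBE2T and FANCI stand at the high end, FANCM, FANCB and SLX4 at the low end, and RAD51D, FANCF and PALB2 show treated HL60 points far to the left of the untreated ones.

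In treated HL60, 15 of the 34 genes were called lower and 7 higher. RAD51D, FANCF, PALB2 and RAD50 fell by 1 or more on the log2 scale (4 genes, background 14.1%), while 0 rose as far (background 11.9%), and RBBP8, FANCE and FANCM rose by 0.70 to 0.75. The share called in either direction was 64.7%, against 73.6% of all genes tested. Lower calls were made for 37.6% of all genes and higher calls for 36%, so the total lay below the background and its split leaned to lower calls. The members' median change was -0.18 (range -1.53 to 0.75), against -0.01 over all genes, and their median change without sign was 0.36, against 0.57. The treated libraries lay below both untreated ones for 23 genes (44.7% of all genes) and above for 7 (42.2%). The direction of the median depended on the scaling. With libraries rescaled to equal totals without short RNAs, the members' median was 0.00 against 0.08 for all genes. This alternative was added after the data were seen. The members' calls were then 10 lower and 8 higher. Over all genes that setting gave 3846 lower and 5127 higher calls, against 4707 and 4505 without it. The lower calls lost there were those of XRCC2 (adjusted p = 0.12), FANCD2 (0.0994), NBN (0.458), SLX4 (0.28) and ATR (0.281), and RAD51C was called higher (0.039).

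In treated Kasumi-1, 7 of the 34 genes were called lower and 0 higher, which is 20.6%, against 26.3% of all genes (16.2% lower, 10.1% higher). RAD51D fell by 0.64, FANCF by 0.52 and EXO1 by 0.43 on the log2 scale, and RAD50, RBBP8, FANCG and RAD54B by 0.26 to 0.36. At an unadjusted p under 0.05, 1 gene (SLX4) was higher and 12 were lower by limma, the only tool run. Of all 12511 genes tested, 1984 were higher and 3004 lower at that threshold. The median change was -0.11, against -0.04 for all genes. Treated libraries lay below both untreated ones for 18 genes (35.9% of all) and above for 4 (25.6%). The lower calls were fewer whenever a library was left out. They numbered 2 without untreated Kasumi-1 replicate 1, 3 without its replicate 2, 4 without treated Kasumi-1 replicate 1 or 2 or untreated HL60 replicate 1 or 2, and 5 without either treated HL60 library. RAD51D and RBBP8 kept their calls in every one of these. With equal totals, RAD54B (adjusted p = 0.0558), FANCF (0.0625) and RAD50 (0.0912) lost theirs.

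The changes differed between the lines for 17 genes (50% of the 34, against 63.1% of all genes). The difference, Kasumi-1 minus HL60, was above 0 for 11 genes (background 30.1%), each called lower in HL60. It was below 0 for 6 (background 33.1%), each called higher in HL60. The difference holds the HL60 change with its sign turned, so its sign is partly tied to the HL60 call. Its median was 0.10, against -0.03 for all genes. Rescaling to equal totals moved the median over all genes to -0.19 and that of the members to -0.08, so relative to all genes the members stood at 0.13 and 0.11. That rescaling left 7 calls of the members above and 9 below 0. Over all genes it left 2838 above and 4820 below 0, against 3761 and 4136 without it. Of the members' calls, FANCL (adjusted p = 0.13), FANCD2 (0.333), MRE11A (0.149) and SLX4 (0.072) were lost. RAD51C (0.0138), XRCC3 (0.0251) and EXO1 (0.0158) were gained. Without treated HL60 replicate 2, the 6 calls below 0 became 3. RBBP8 was the one gene called in opposite directions, higher in HL60 and lower in Kasumi-1. RAD51D, FANCF, RAD50, RAD54B and FANCG were called lower in both lines. No count over all genes stands beside these joint calls. The Kasumi-1 calls of RAD54B, FANCF and RAD50 were lost in 14, 10 and 10 of 18 alternatives. That of FANCG was lost in 2 and that of RAD51D in 0.

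**Figure D2:**
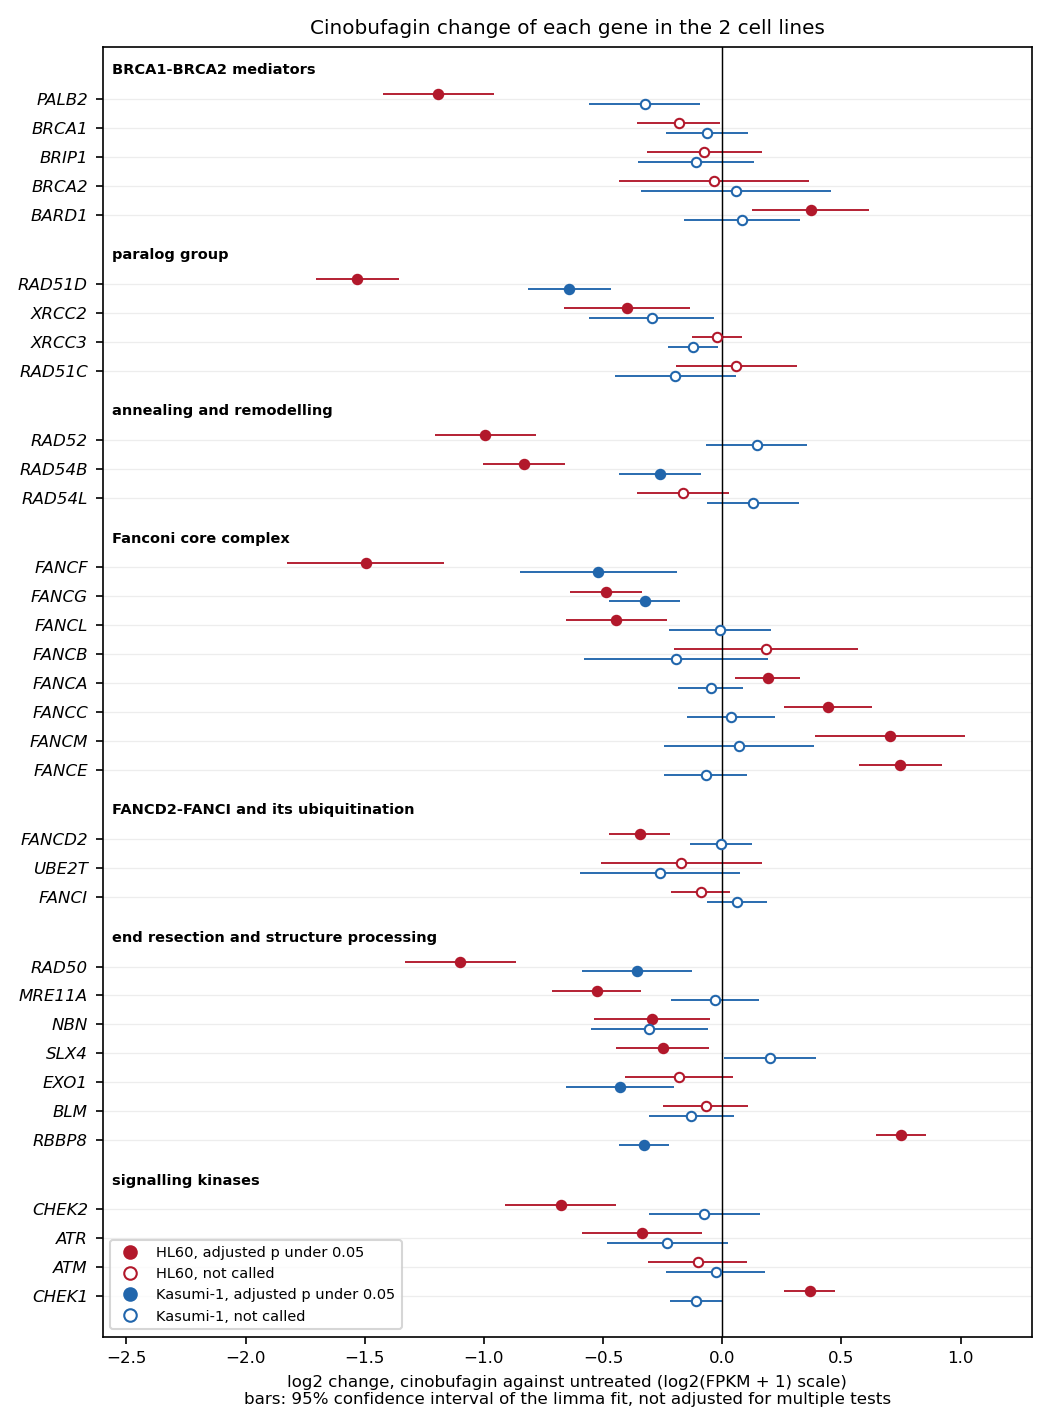
Log2 change of FPKM + 1 after cinobufagin for each of the 34 genes in HL60 and in Kasumi-1, with 95% confidence intervals from the limma fit and filled points for called changes. HL60 runs from -1.53 (RAD51D) to 0.75 (RBBP8), and Kasumi-1 from -0.64 (RAD51D) to 0.20 (SLX4).

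Of the 5 genes of the BRCA1 and BRCA2 axis, which prepares trimmed ends for strand invasion, PALB2 fell and BARD1 rose in HL60, and none was called in Kasumi-1. PALB2, which links BRCA1 to BRCA2, read 9.48 and 9.24 FPKM in untreated HL60 and 3.74 and 3.35 after cinobufagin. Its Kasumi-1 values were 4.99 and 5.35 untreated against 3.53 and 4.35 treated. The groups did not overlap in either line. The HL60 change was -1.19 (SE 0.10, adjusted p = 4.46e-05), the Kasumi-1 change -0.33 (adjusted p = 0.0519), and the difference 0.87 (adjusted p = 0.00177). The Kasumi-1 change of PALB2 passed in 6 of 18 alternatives, among them quantile normalization, the filter at 5 FPKM, no intensity trend and leaving out treated Kasumi-1 replicate 2 (adjusted p = 0.0341, with a range of 0.0341 to 0.192 over all of them). BARD1, the RING partner that makes BRCA1 a ubiquitin ligase, read 6.81 and 7.46 FPKM in untreated and 9.54 and 9.48 in treated HL60. Its rise of 0.37 (adjusted p = 0.0144) lost its call without untreated HL60 replicate 1 (0.0795), treated replicate 1 (0.06) or treated replicate 2 (0.0557). In Kasumi-1 the BARD1 values overlapped, at 2.43 and 2.96 against 2.66 and 3.17.

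BRCA1 itself read 20.2 and 21.3 FPKM in untreated and 18.8 and 17.6 in treated HL60, a change of -0.18 (95% interval -0.36 to -0.01, adjusted p = 0.0558) that was not called. Its groups did not overlap, and among other settings it passed without untreated Kasumi-1 replicate 1 (adjusted p = 0.0387) or replicate 2 (0.039). BRCA2, the partner of PALB2, overlapped between groups, with 5.56 and 6.85 against 5.68 and 6.34 FPKM. Its interval in HL60, -0.43 to 0.36, allows a change of either sign. BRIP1, a helicase that binds BRCA1, changed by -0.08 (interval -0.32 to 0.17) in HL60 and -0.11 (-0.35 to 0.13) in Kasumi-1, neither called. In Kasumi-1 the changes of BRCA1 and BRCA2 were -0.06 and 0.06.

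Among the 4 genes RAD51C, RAD51D, XRCC2 and XRCC3, which are paralogs whose proteins form complexes with one another, RAD51D and XRCC2 fell in HL60 while RAD51C and XRCC3 were not called. RAD51D read 12.0 and 12.3 FPKM in untreated HL60 and 3.73 and 3.35 after cinobufagin. In Kasumi-1 it read 7.70 and 7.03 untreated and 4.41 and 4.31 treated. Both lines showed every treated library below every untreated one. The mean level fell by 70.8% in HL60 (log2 change -1.53, SE 0.07, adjusted p = 3.99e-06). It fell by 40.8% in Kasumi-1 (-0.64, adjusted p = 0.00289), and the difference of 0.89 passed (adjusted p = 0.000428). A read-through gene that shares the RAD51D strand, RAD51L3-RFFL, stood at or below 0.505 FPKM in all libraries. XRCC2, the partner of RAD51D, read 7.83 and 9.06 FPKM in untreated and 6.86 and 5.49 in treated HL60. Its change of -0.40 (adjusted p = 0.0143) lost its call without untreated replicate 2 (0.0831) or treated replicate 2 (0.071) of HL60. XRCC2 in Kasumi-1 changed by -0.30 (adjusted p = 0.0927), with 8.12 and 7.74 against 6.36 and 6.19 FPKM.

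RAD51C, which pairs with XRCC3, read 34.7 and 34.0 FPKM in untreated HL60 and 38.9 and 33.0 in treated HL60, so the groups overlapped. Its interval was -0.20 to 0.31. XRCC3, which has a narrow interval of -0.13 to 0.08 in HL60, read 25.4 and 24.8 FPKM against 24.6 and 24.9. KLC1, which overlaps XRCC3 on the opposite strand, read 25.3 and 23.2 against 36.8 and 35.7 FPKM in HL60. The strand setting of the counting is not given, and the part of this overlap in the XRCC3 values was not tested. The ratio of RAD51C to RAD51D within a library stood at 2.89 and 2.77 in untreated and 10.4 and 9.84 in treated HL60, and at 4.88 and 4.62 against 7.31 and 6.64 in Kasumi-1. The treated ratios lay above the untreated ones in both lines.

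RAD52 and RAD54B, of the annealing and strand-exchange group, fell in HL60, and RAD54L was not called. RAD52, which anneals complementary single strands, read 6.99 and 7.37 FPKM in untreated HL60 and 2.81 and 3.43 after cinobufagin. In Kasumi-1 it read 2.29 and 2.30 untreated and 2.56 and 2.74 treated, so the treated libraries lay below in one line and above in the other. The HL60 change was -0.99 (SE 0.09, adjusted p = 6.65e-05) and the Kasumi-1 change 0.14 (adjusted p = 0.273). Their difference, 1.14 (adjusted p = 0.000344), was the largest among the 34 genes. RAD54B, a motor protein that drives strand exchange, read 5.27 and 5.68 FPKM in untreated and 2.69 and 2.58 in treated HL60, a change of -0.83 (adjusted p = 5.7e-05). Its Kasumi-1 values were 7.50 and 6.86 against 5.93 and 5.72. That Kasumi-1 change of RAD54B, -0.26 (adjusted p = 0.04), lost its call whichever single library was left out (adjusted p from 0.0603 without untreated HL60 replicate 1 to 0.167 without untreated Kasumi-1 replicate 1). The RAD54B call in Kasumi-1 was also lost with no filter, with 0.1 added to FPKM, with each line fitted alone or with equal totals. Median ratio rescaling and quantile normalization removed it as well. RAD54L, a close relative of RAD54B, changed by -0.16 in HL60 (interval -0.36 to 0.03) and 0.13 in Kasumi-1 (-0.07 to 0.32).

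The 8 genes of the Fanconi core and its anchor split in HL60: FANCE, FANCM, FANCC and FANCA rose, FANCF, FANCG and FANCL fell, and FANCB was not called. FANCF and FANCG were the 2 called in Kasumi-1, both lower. FANCF, the adaptor that joins the C and E subunits to the rest of the core, read 5.63 and 5.96 FPKM in untreated HL60 and 1.15 and 1.71 after cinobufagin. Its Kasumi-1 values were 3.59 and 4.25 untreated and 2.19 and 2.67 treated. No group overlapped the other in either line. The mean level fell by 75.4% in HL60 (log2 change -1.50, SE 0.14, adjusted p = 7.76e-05), and fell by 38% in Kasumi-1 (-0.52, adjusted p = 0.0354), with a difference of 0.98 (adjusted p = 0.00468). The Kasumi-1 call of FANCF was lost without 6 of the 8 libraries, untreated HL60 replicate 1 (adjusted p = 0.0587) or 2 (0.0591), untreated Kasumi-1 replicate 1 (0.0661) or 2 (0.149), and treated Kasumi-1 replicate 1 (0.147) or 2 (0.058). It was also lost with 0.1 in place of 1 added to FPKM, with no filter, with each line fitted alone or with equal totals. FANCF is a gene of 1 exon in the GENCODE v29 annotation, while the other members have 3 (XRCC2) to 63 (ATM).

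FANCE, the subunit that binds FANCD2, moved the other way in HL60, from 5.46 and 5.41 FPKM to 9.70 and 9.91. In Kasumi-1 the FANCE groups overlapped, at 4.06 and 4.01 against 3.53 and 4.08. The HL60 change was 0.75 (SE 0.07, adjusted p = 0.000104) and the difference -0.82 (adjusted p = 0.000633). Within a library the ratio of FANCE to FANCF was 0.971 and 0.907 in untreated HL60 and 8.47 and 5.81 in treated HL60. In Kasumi-1 it was 1.13 and 0.942 against 1.61 and 1.52. FANCC, the partner of FANCE, went from 4.82 and 4.35 to 6.31 and 6.90 FPKM in HL60 (0.45, adjusted p = 0.00175) and stood at 1.93 and 2.04 against 2.00 and 2.12 in Kasumi-1. The difference for FANCC, -0.41 (adjusted p = 0.0156), lost its call without untreated replicate 2 (0.0545) or treated replicate 2 (0.0559) of HL60.

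FANCM, the translocase that anchors the core to DNA, read 2.51 and 2.95 FPKM in untreated and 4.74 and 5.41 in treated HL60. The rise of 0.70 (SE 0.13, adjusted p = 0.00252) had no counterpart beyond the spread in Kasumi-1, where FANCM overlapped at 2.97 and 3.44 against 2.97 and 3.91. Its difference, -0.63 (adjusted p = 0.0229), was lost without untreated HL60 replicate 1 (0.0731), treated HL60 replicate 2 (0.0757), untreated Kasumi-1 replicate 2 (0.0697) or treated Kasumi-1 replicate 1 (0.0552). FANCA, a scaffold of the core, rose by 0.19 in HL60 (adjusted p = 0.0198), from 9.16 and 9.74 to 10.8 and 11.1 FPKM. That call of FANCA was lost without untreated HL60 replicate 1 (0.115), treated replicate 1 (0.0524) or treated replicate 2 (0.093). The FANCA difference of -0.24 (adjusted p = 0.037) was lost whichever single library was left out, except untreated HL60 replicate 2, with adjusted p from 0.0628 (untreated Kasumi-1 replicate 2) to 0.122 (untreated HL60 replicate 1). With median ratio rescaling or quantile normalization the FANCA difference was not called either. ZNF276, which overlaps FANCA on the opposite strand, read 4.76 and 4.56 against 7.17 and 6.33 FPKM in HL60, and the strand setting of the counting is not given in the sources used here.

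FANCG, which helps hold FANCA in the core, was one of the genes lower in both lines, with 16.1 and 16.8 against 11.8 and 11.1 FPKM in HL60 (-0.49, adjusted p = 0.000411) and 17.7 and 16.4 against 13.7 and 13.1 in Kasumi-1 (-0.33, adjusted p = 0.0134). The difference for FANCG, 0.16, was not called (interval -0.05 to 0.37). Its Kasumi-1 call was lost without untreated replicate 1 (0.0676) or treated replicate 2 (0.0603) of Kasumi-1. FANCL, the ubiquitin ligase itself, fell in HL60 from 16.5 and 15.9 to 12.7 and 10.6 FPKM (-0.44, adjusted p = 0.00345) and overlapped in Kasumi-1, at 16.8 and 16.3 against 17.1 and 15.7. The FANCL difference, 0.44 (adjusted p = 0.021), was lost without untreated HL60 replicate 1 (0.0657), untreated Kasumi-1 replicate 2 (0.0603) or treated Kasumi-1 replicate 1 (0.0653). FANCB, another core subunit, had wide intervals, -0.20 to 0.57 in HL60 and -0.58 to 0.19 in Kasumi-1. Its difference, -0.38 (adjusted p = 0.19), passed without untreated HL60 replicate 2 (adjusted p = 0.041).

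**Figure D3:**
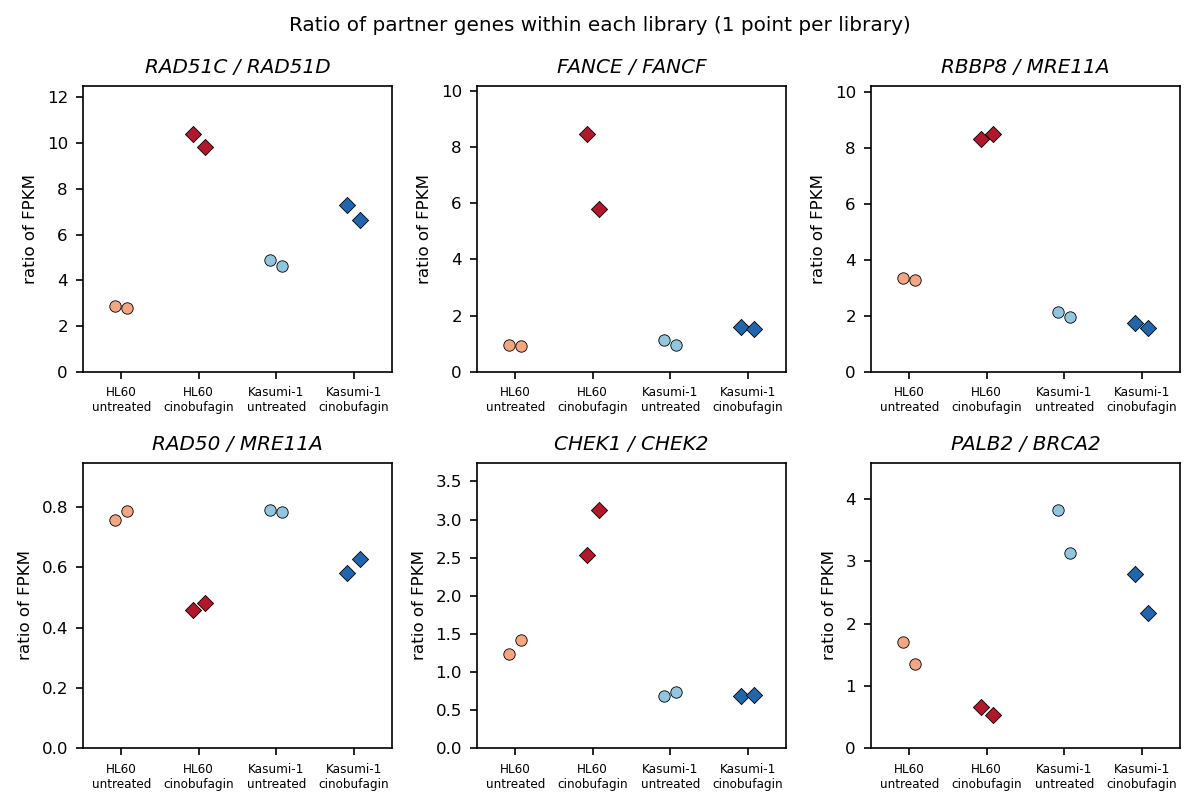
FPKM ratio of 6 pairs of genes within each library (linear axes from 0), by group. RAD51C to RAD51D rises from 2.77 and 2.89 to 9.84 and 10.4 in HL60 and FANCE to FANCF from under 1 to 5.81 and 8.47. For these pairs the Kasumi-1 points move less. RBBP8 to MRE11A rises in HL60 and falls in Kasumi-1. PALB2 to BRCA2 and RAD50 to MRE11A fall in both lines, and CHEK1 to CHEK2 overlaps in Kasumi-1.

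Of the substrates and the E2 of the Fanconi ligase, FANCD2 fell in HL60, and FANCI and UBE2T were not called in either line. FANCD2, whose ubiquitin mark is the central step of the pathway, read 20.6 and 21.4 FPKM in untreated and 16.9 and 15.8 in treated HL60 (-0.35, adjusted p = 0.00104). Its Kasumi-1 libraries overlapped, at 19.1 and 19.8 against 19.4 and 19.3, and the difference was 0.34 (adjusted p = 0.00757). With equal totals FANCD2 was not called in HL60 (adjusted p = 0.0994), and its difference was 0.14 (adjusted p = 0.333). FANCI, its partner in the clamp, stood at 45.2 and 45.6 against 43.9 and 41.3 FPKM in HL60, with an interval of -0.21 to 0.03. The UBE2T interval was -0.51 to 0.17 in HL60 and -0.60 to 0.08 in Kasumi-1. The ratio of FANCI to FANCD2 was 2.19 and 2.13 in untreated HL60 and 2.61 in each treated library.

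In the group that trims and resolves DNA ends, RBBP8 rose and MRE11A, RAD50, NBN and SLX4 fell in HL60, while RBBP8, RAD50 and EXO1 fell in Kasumi-1. RBBP8 encodes CtIP, which starts resection together with the MRE11 complex. It read 36.2 and 37.6 FPKM in untreated and 62.4 and 63.0 in treated HL60. In Kasumi-1 it read 18.9 and 19.2 untreated and 14.9 and 15.0 treated. The treated pair thus lay above in HL60 and below in Kasumi-1, with no overlap in either. The changes were 0.75 (SE 0.04, adjusted p = 9.85e-06) and -0.33 (SE 0.04, adjusted p = 0.00438), and the difference -1.08 (adjusted p = 2.63e-05).

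The 3 subunits of the MRE11 complex, which binds broken ends and recruits ATM, were all called lower in HL60. RAD50, its ATPase arm, read 8.23 and 9.05 FPKM in untreated and 3.44 and 3.56 in treated HL60 (-1.10, SE 0.10, adjusted p = 6.42e-05). In Kasumi-1 its values were 6.92 and 7.61 against 4.96 and 5.96. That Kasumi-1 change of RAD50, -0.36 (adjusted p = 0.0385), kept its call only without treated replicate 2 of Kasumi-1. Without the other libraries its adjusted p ran from 0.0564 (untreated HL60 replicate 1) to 0.159 (untreated Kasumi-1 replicate 2). MRE11A, the nuclease, went from 10.9 and 11.5 to 7.51 and 7.40 FPKM in HL60 (-0.53, adjusted p = 0.000791) and overlapped in Kasumi-1, at 8.77 and 9.74 against 8.55 and 9.52. The difference for RAD50 was 0.74 (adjusted p = 0.00341) and for MRE11A 0.50 (adjusted p = 0.00733), of which the latter became 0.30 with equal totals (adjusted p = 0.149). NBN, the subunit that binds ATM, read 13.3 and 15.8 against 11.5 and 11.8 FPKM in HL60 and 14.1 and 16.6 against 12.0 and 12.3 in Kasumi-1. Its changes were -0.29 (adjusted p = 0.0354) and -0.31 (adjusted p = 0.0706). The NBN call in HL60 was lost without untreated HL60 replicate 2 (0.188), treated HL60 replicate 1 (0.125) or 2 (0.0914), or treated Kasumi-1 replicate 1 (0.054) or 2 (0.0534).

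EXO1, the exonuclease of long-range resection, read 7.42 and 7.28 FPKM in untreated and 5.60 and 4.84 in treated Kasumi-1 (-0.43, adjusted p = 0.0206), and 17.5 and 15.8 against 15.6 and 13.7 in HL60 (-0.18, adjusted p = 0.128). The difference for EXO1, -0.25, was not called (interval -0.57 to 0.07), though it was -0.45 with equal totals (adjusted p = 0.0158). Its Kasumi-1 call was lost without untreated Kasumi-1 replicate 1 (0.0839) or 2 (0.075) or treated replicate 2 (0.0856). SLX4, the scaffold of nucleases that cut joint molecules, stood at 3.28 and 3.57 against 2.73 and 2.70 FPKM in HL60 (-0.25, adjusted p = 0.0278) and at 1.19 and 1.10 against 1.61 and 1.33 in Kasumi-1 (0.20, adjusted p = 0.115). Treated libraries were lower in one line and higher in the other, and the difference was 0.45 (adjusted p = 0.0129), or 0.29 with equal totals (adjusted p = 0.072). With 0.1 in place of 1 added to FPKM, with quantile normalization or with equal totals, SLX4 was not called in HL60. The HL60 call of SLX4 was lost without untreated replicate 2 (0.136), treated replicate 1 (0.088) or treated replicate 2 (0.1) of HL60. BLM, the helicase that dissolves double Holliday junctions, changed by -0.07 (interval -0.25 to 0.11) in HL60 and -0.13 (-0.31 to 0.05) in Kasumi-1.

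Of the 4 signalling kinases, CHEK1 rose, CHEK2 and ATR fell, and ATM was not called in HL60, and none was called in Kasumi-1. CHEK1, the effector of ATR, read 34.4 and 35.7 FPKM in untreated and 45.2 and 45.8 in treated HL60 (0.37, SE 0.04, adjusted p = 0.000329). In Kasumi-1 it read 19.3 and 19.1 against 17.5 and 17.9 (-0.11, adjusted p = 0.118), so its treated pair lay above in HL60 and below in Kasumi-1. CHEK2, the effector of ATM, read 27.7 and 25.2 against 17.8 and 14.7 in HL60 (-0.68, SE 0.10, adjusted p = 0.000703) and 28.1 and 26.1 against 25.6 and 25.8 in Kasumi-1. The differences, -0.48 for CHEK1 (adjusted p = 0.000823) and 0.60 for CHEK2 (adjusted p = 0.00836), had opposite signs. The ratio of CHEK1 to CHEK2 was 1.24 and 1.42 in untreated HL60 and 2.54 and 3.12 in treated HL60. In Kasumi-1 the same ratio was 0.686 and 0.732 against 0.684 and 0.696. ATR read 6.55 and 7.23 against 5.51 and 4.98 FPKM in HL60 (-0.34, adjusted p = 0.0241), a call lost without untreated replicate 2 (0.119) or treated replicate 2 (0.121) of HL60. ATM had an interval of -0.31 to 0.11 in HL60 and -0.24 to 0.18 in Kasumi-1.

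Without drug, 21 of the 34 genes were lower in Kasumi-1 than in HL60 and 2 were higher, so 67.6% were called, against 69.7% of all genes. Lower calls were made for 33.8% of all genes and higher calls for 35.9%. The members' median was -0.46, against 0.01 for all genes. Kasumi-1 libraries lay below both HL60 ones for 23 genes (41.5% of all) and above for 3 (43%), and 5 genes were called lower by 1 or more on the log2 scale (10.2%) and 0 higher (13.8%). BRCA2 was 4.11-fold higher in HL60 by mean level, with 5.56 and 6.85 FPKM against 1.31 and 1.71 (-1.52, SE 0.17, adjusted p = 0.0002). RAD52 was 3.12-fold (-1.31), SLX4 2.99-fold (-1.04), BARD1 2.65-fold (-1.14) and EXO1 2.27-fold (-1.08) higher there. BRCA1 and ATM each stood 2.01-fold higher in HL60. RAD54B (0.34, adjusted p = 0.00513) and BRIP1 (0.38, adjusted p = 0.0134) were the genes higher in Kasumi-1.

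The Kasumi-1 and HL60 levels of RAD51C, CHEK2, FANCA, FANCL, FANCG and NBN differed by 0.07 or less on the log2 scale and were not called. Calls between the untreated lines that a single library decided were those of BRIP1, FANCF, UBE2T, MRE11A and ATR. BRIP1 was lost without untreated HL60 replicate 1 (adjusted p = 0.071) or untreated Kasumi-1 replicate 2 (0.0639), each of which left 1 call in that direction, and UBE2T was lost without the same libraries (0.0637 and 0.0782). FANCF, MRE11A and ATR were lost without untreated HL60 replicate 1 (0.0551, 0.052 and 0.0531), untreated HL60 replicate 2 (0.0858, 0.121 and 0.152) or untreated Kasumi-1 replicate 1 (0.101, 0.129 and 0.164). With equal totals MRE11A and ATR were not called either, nor was ATR with no filter. RAD50, not called (adjusted p = 0.0797), was called lower in Kasumi-1 with quantile normalization, with the replicate number as a block and without treated Kasumi-1 replicate 2.

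**Figure D4:**
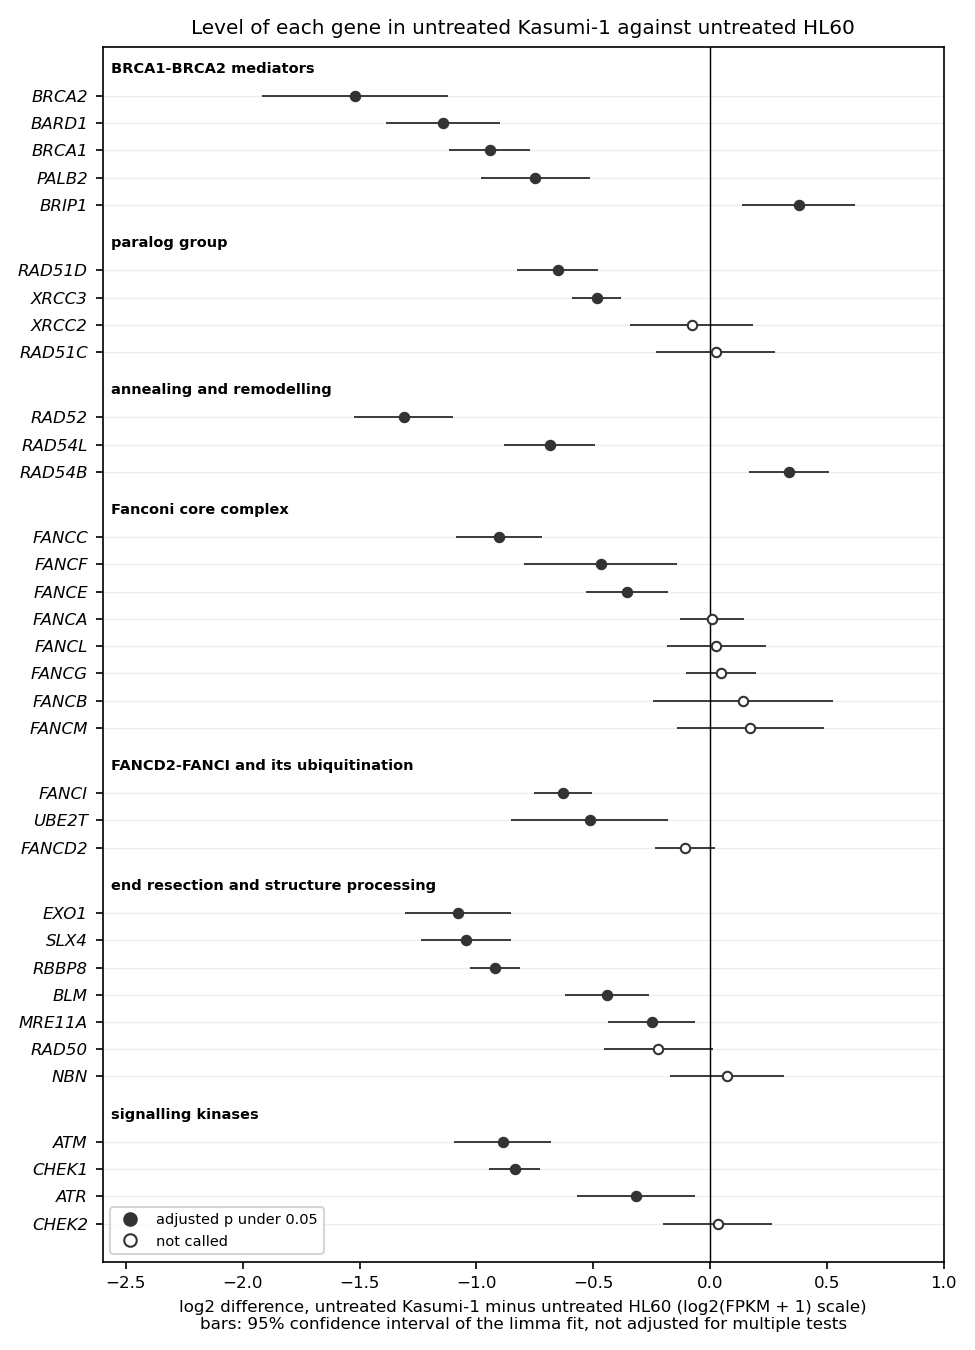
Log2 difference of FPKM + 1, untreated Kasumi-1 minus untreated HL60, for each of the 34 genes with 95% confidence intervals and filled points for called differences. The points run from -1.52 (BRCA2) to 0.38 (BRIP1), and 21 called genes lie to the left of 0.

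Among other genes of recombination and of the Fanconi pathway, 19 of 58 tested were higher and 28 lower in treated HL60 (median -0.17), and 1 higher and 16 lower in Kasumi-1 (median -0.14). With equal totals the HL60 counts were 21 higher and 22 lower (median 0.01). Over all genes, HL60 had 4505 higher and 4707 lower calls, or 5127 and 3846 with equal totals. PSMC3IP, a cofactor of strand exchange in meiosis, rose from 12.3 ± 0.89 to 44.8 ± 0.58 FPKM in HL60 (1.78, adjusted p = 6.5e-06) and by 0.33 in Kasumi-1 (adjusted p = 0.0462). MND1, its binding partner, fell by 1.56 in HL60. C17orf70, which encodes the core subunit FAAP100, fell from 14.2 ± 0.12 to 2.85 ± 0.18 FPKM in HL60 (-1.98, adjusted p = 1.17e-06). In Kasumi-1, BRCC3 fell by 0.80 (adjusted p = 0.00172).

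Genes of the other repair pathways were counted against the background of 37.6% lower and 36% higher calls in HL60. There were 8 lower and 2 higher of 13 in end joining, 6 and 0 of 6 in mismatch repair, 14 and 3 of 20 in base excision repair, and 10 and 5 of 18 in nucleotide excision repair. With equal totals these counts were 5 and 3, 5 and 0, 13 and 3, and 10 and 6. The background moved as well there, from 4707 lower and 4505 higher calls over all genes to 3846 and 5127. LIG4, the ligase of end joining, rose by 1.32, while the base excision glycosylase NTHL1 fell by 3.92. ERCC2, a helicase of nucleotide excision repair, fell by 2.24. In Kasumi-1 (background 16.2% lower, 10.1% higher) those lists had 3 lower and 0 higher, 1 and 0, 7 and 2, and 7 and 1. The mismatch repair gene called there, MSH6, fell by 0.44.

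Cell cycle genes were counted beside the members because many repair genes are expressed with them. In HL60, 10 of 23 S phase genes were higher and 11 lower (median -0.01), and 20 of 22 G2 and mitosis genes were higher and 1 lower (median 1.07). The S phase counts turned with the scaling, to 12 higher and 3 lower (median 0.18) with equal totals. The G2 and mitosis counts were 21 and 0 there. Calls over all genes in HL60 went from 4505 higher and 4707 lower to 5127 and 3846 with that scaling. In Kasumi-1 the counts were 1 higher and 11 lower (median -0.21) for S phase and 8 higher and 0 lower (median 0.18) for G2 and mitosis. Between the untreated lines, 18 S phase genes were lower and 2 higher in Kasumi-1. MYC went from 768 ± 26 to 29.8 ± 0.75 FPKM in HL60 (-4.64, adjusted p = 7.85e-08) and fell by 0.62 in Kasumi-1 (adjusted p = 0.00124). E2F1 rose by 0.68 in HL60 (adjusted p = 6.3e-05) and fell by 0.21 in Kasumi-1 (adjusted p = 0.0425). The part of these lists in the members' changes was not tested.

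**Figure D5:**
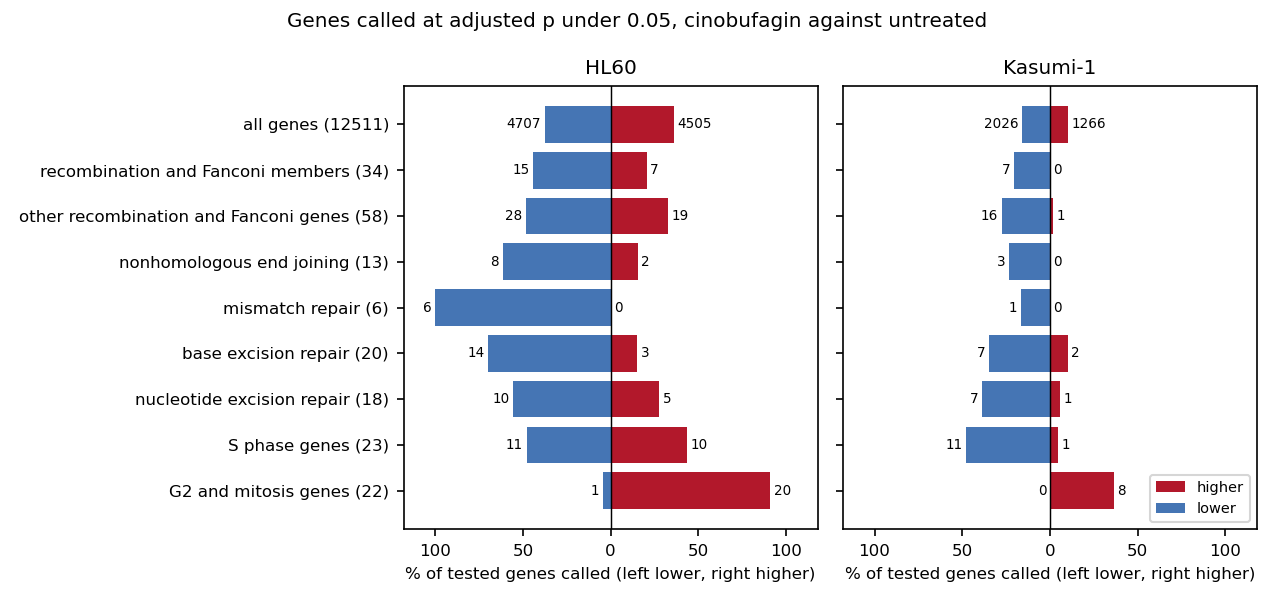
Percent of tested genes called higher and called lower after cinobufagin in each line, for the 34 genes, the other lists and all genes tested. In HL60 the G2 and mitosis list has 20 of 22 genes higher, and in Kasumi-1 the 34 genes have no higher call.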

How the data were processed

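RNA was measured in 8 libraries, 2 for each of 4 groups. The labels' protocols name RNeasy for RNA extraction and TruSeq Stranded mRNA for the libraries. The authors deposited 1 table of FPKM values per gene and library, and 0 of its sample columns were left out. Build hg19, Cufflinks 2.2.1, HISAT2 2.1.0 and bcl2fastq 2.20.0 are named per the submitters' processing notes. Annotation, strand setting and filters: not given in the sources used here. Without counts the depth is unknown, so no counting interval was set. Relative depth was estimated from genes under 0.3 FPKM.

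From these values log2(FPKM + 1) was fitted with limma 3.58.1 in R 4.3.3, with 1 mean per group over all 8 libraries, 4 residual degrees of freedom and an intensity trend, after a test on simulated data. Genes at 1 FPKM or more in at least 2 libraries were tested (12511 tested, 13082 not). Permuting 2 against 2 libraries allows no p below 0.33, so it was not used. Treated cells were contrasted with untreated cells of the same line, these changes with each other, and the untreated lines. The members, their roles and the lists of other genes were chosen with earlier results of these data known.

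Values in every library were planned for members called with a log2 change of at least 1 in HL60 or 0.5 in Kasumi-1, or with a difference of at least 1, and those of other members were added after values were seen. From each other list at most 2 called genes per direction were named, by largest change, and MYC and E2F1 always. Some genes of these lists are not reported here and are left out of the counts. Promoter windows came from RefSeq for GRCh38.p14, where 31 of 34 members had an entry. For a gene with several starts, the window with most motif matches is printed. Overlapping genes came from GENCODE v29.

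The alternatives were a pseudocount of 0.1, no filter, a filter at 5 FPKM, median ratio rescaling, quantile normalization, the replicate number as a block, each line fitted alone, no intensity trend, short RNAs and repeated symbols left out, and each library left out in turn. Rescaling to equal totals without short RNAs was added after the data were seen, as were the counts of the other lists under each rescaling.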

Additional observations from a re-analysis of the deposited data

Results flagged for a closer look

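The difference of the changes, Kasumi-1 minus HL60 on the log2(FPKM + 1) scale, passed limma's test of the difference itself (Benjamini-Hochberg adjusted p under 0.05 over 12511 genes) for 17 of the 34 genes, against 63.1% of all genes. The difference holds the HL60 change with its sign turned, so its sign is partly tied to the HL60 call. It was below 0 for genes called higher in HL60: RBBP8 at -1.08, FANCE at -0.82, FANCM at -0.63 and CHEK1 at -0.48. FANCC at -0.41 and FANCA at -0.24 were the others. It was above 0 for genes called lower in HL60: FANCD2 at 0.34, FANCL at 0.44, SLX4 at 0.45 and MRE11A at 0.50. Further up stood RAD54B at 0.57, CHEK2 at 0.60, RAD50 at 0.74, PALB2 at 0.87, RAD51D at 0.89, FANCF at 0.98 and RAD52 at 1.14. RBBP8 was called lower in Kasumi-1. Treated Kasumi-1 libraries lay below the untreated ones for CHEK1 and FANCA and above them for RAD52 and SLX4, none of these called. No group had enough libraries for a test of single outlying values.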

How the results depend on the processing

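Of 18 alternatives, none turned the direction of a called change of any of the 34 genes. The 7 lower calls in Kasumi-1 became 4 with no filter, with each line fitted alone or with equal totals, and 2 to 5 with a library left out. With equal totals the 11 differences above 0 became 7. With a library left out, HL60 had 5 to 7 higher and 11 to 16 lower calls, Kasumi-1 0 to 0 higher, the differences 10 to 12 above and 3 to 6 below 0, and untreated Kasumi-1 against HL60 1 to 2 higher and 17 to 22 lower. A group left with 1 library was assumed to vary like the others. Over all genes, the share of calls that were higher was 38.5% in Kasumi-1, and 50.5% with median ratio rescaling, and for the differences 47.6%, and 37.1% with equal totals. The cause of these shifts was not tested. The filter at 5 FPKM tested 31 of the 34 genes.

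The labels' replicate numbers, 1 and 2, do not name a shared batch, and whether same-numbered libraries share one is not known. Deviations of same-numbered libraries had Pearson's r of 0.272 to 0.434 across 12237 genes over the 6 pairs of groups, where genes are not independent replicates. With the replicate number as a block, Kasumi-1 had 11 lower calls. PALB2 (adjusted p = 0.0467), NBN (0.021), RAD51C (0.0389) and XRCC3 (0.0407) were added. No count over all genes with that block stands beside these calls. In HL60 the block added BRCA1 (0.0479) and EXO1 (0.0291), and for the differences EXO1 (0.0356), RAD51C (0.0288), BARD1 (0.04999), RAD54L (0.0379) and FANCI (0.0466). Without counts, the precision of low genes such as FANCF and SLX4 is known only from the spread of the libraries.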

Other observations

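In untreated HL60, 25 of the 34 genes were higher in replicate 2 than in replicate 1, against 50.7% of all genes tested, and the counts were 13 (45.3%) in treated HL60, 17 (53.4%) in untreated Kasumi-1 and 20 (54.1%) in treated Kasumi-1.

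Ratios of 4 further pairs of partner genes were taken within each library. RAD50 to MRE11A, subunits of the same end-binding complex, stood at 0.758 and 0.787 in untreated and 0.458 and 0.480 in treated HL60, and at 0.789 and 0.782 against 0.580 and 0.627 in Kasumi-1, so the treated libraries were lower in both lines. PALB2 to BRCA2 stood at 1.71 and 1.35 against 0.658 and 0.527 in HL60, and at 3.82 and 3.13 against 2.80 and 2.17 in Kasumi-1. BARD1 to BRCA1 stood at 0.338 and 0.349 against 0.509 and 0.539 in HL60 and at 0.250 and 0.270 against 0.270 and 0.323 in Kasumi-1, where the groups touched. RBBP8 to MRE11A stood at 3.33 and 3.27 against 8.31 and 8.51 in HL60 and at 2.15 and 1.97 against 1.75 and 1.57 in Kasumi-1, higher with drug in one line and lower in the other. These pairs were chosen with values known, and their ratios are a description.

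By structure, the 15 genes lower in HL60 and the 7 higher ones each had a median of 15 exons, against 19 for the 12 not called. Their median genomic spans were 51381 bases for the lower, 79098 for the higher and 58101 for the uncalled genes. Spearman's rho across the 34 genes between the HL60 change and the number of exons was 0.10, and 0.19 with the genomic span. For the Kasumi-1 change it was 0.31 and 0.23.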
